A study of Homo sapiens with 12 samples.

Results

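Of the 58684 genes in the count table, 8 were taken by name as a group of matrix proteases and their inhibitors. They were MMP1, MMP2, MMP9, MMP14, the urokinase gene PLAU, and TIMP1, TIMP2 and TIMP3. The rule uses names alone and no measured value. RNA sequencing had been carried out on U2OS, a human osteosarcoma cell line, in 4 groups of 3 libraries each. These were total RNA (input) and cap-immunoprecipitated RNA (Cap IP) of cells stably carrying eIF4E-Flag, and the same pair of fractions from cells stably carrying the vector. eIF4E binds the m7G cap of mRNAs and starts their translation, and the series title asks whether it raises the share of each transcript that is capped. Whether a stable line was a clone or a pool, and which promoter drove eIF4E-Flag, are not stated in the labels. The labels do not say that replicates were separate cultures, so the p-values cover the spread between libraries, which may be technical. The word culture stands here for the input and Cap IP libraries whose titles share a stem.

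Matrix metalloproteinases (MMPs) are zinc proteases that cut collagens, laminins and other proteins outside the cell. MMP2 and MMP9 are the gelatinases, MMP1 is an interstitial collagenase, and MMP14 (MT1-MMP) is anchored in the membrane and activates the MMP2 precursor with the help of TIMP2. The TIMPs are small secreted inhibitors of MMPs, and TIMP3 differs from the others in binding to the matrix. PLAU encodes urokinase, the protease that turns plasminogen into plasmin once bound to its receptor PLAUR. MMP2, MMP14 and the TIMPs are genes of mesenchymal cells, and osteosarcoma lines are of that origin.

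The cap is added at the first transcribed base, so the DNA just before the start sites is shown for the members with an entry in the RefSeq promoter table used here (GRCh38.p14). These were MMP14, TIMP1, TIMP3 and PLAU, 4 of 8. Each stretch runs from 150 to 31 bases before the annotated start, 120 bases on the coding strand. Those of MMP14, TIMP1 and TIMP3 lie before the annotated gene. That of PLAU lies within the gene, after the other listed start at 73910610, and was not checked for exons. Capitals mark matches on either strand to the motifs searched. These were TGAGTCA and TGAGTAA (binding sites of AP-1 type), GGGCGG (the GC box), CCAAT and TATAAA.
MMP14, chr14:22836435-22836554, plus strand: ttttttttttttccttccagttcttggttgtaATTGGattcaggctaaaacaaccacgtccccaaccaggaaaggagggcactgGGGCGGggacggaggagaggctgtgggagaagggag
TIMP1, chrX:47582286-47582405, plus strand: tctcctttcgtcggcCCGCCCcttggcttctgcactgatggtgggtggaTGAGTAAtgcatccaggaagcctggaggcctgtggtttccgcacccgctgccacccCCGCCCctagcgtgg
TIMP3, chr22:32801555-32801674, plus strand: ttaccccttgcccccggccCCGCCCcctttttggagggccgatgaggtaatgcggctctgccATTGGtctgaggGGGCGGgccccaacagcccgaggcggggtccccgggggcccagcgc
PLAU, chr10:73910982-73911101, plus strand, second of 2 listed starts: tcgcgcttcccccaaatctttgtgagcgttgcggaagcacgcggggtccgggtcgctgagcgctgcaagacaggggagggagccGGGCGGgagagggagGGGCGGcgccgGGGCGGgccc

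GC boxes stood in all 4 printed stretches but not in the window of the other PLAU start, which held CCAAT at -182. The GC box is a motif found in 42.6% of all 35116 promoter windows (250 upstream bases each). In the PLAU stretch they stood at -66, -51 and -40 from the start. TIMP1 alone among the 4 held TGAGTAA, at -101, which 2.21% of all windows hold. CCAAT on the reverse strand stood at -118 in MMP14 and at -88 in TIMP3, and 32% of all windows hold it. None of the members' 5 windows held TGAGTCA or TATAAA, which 4.2% and 10.7% of all windows hold. Matches are a description of these letters, not of binding.

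Libraries held 1206321 to 1813486 counts, and the 8 genes together had 7547 of 18200146 counts (0.0415%). Levels are given as CPM, counts scaled to the TMM-adjusted size of the library, unless another scale is named. At this depth 3 counts stood for 1.19 to 3.15 CPM. EIF4E was higher in all 3 eIF4E libraries than in all 3 vector libraries of each fraction, by 0.98 ± 0.36 (log2 ± SE, edgeR adjusted p = 0.231) in input and by 0.79 ± 0.35 (edgeR adjusted p = 0.492) in Cap IP, and did not pass over all genes. Of 8 mesenchymal and osteosarcoma markers, VIM (15467 counts over the 12 libraries), COL1A1 (10693) and SPARC (5646) were well counted, while COL1A2 had 2 counts and TWIST1 had 0. Summed, these markers lay between 1764 and 2245 CPM in vector input and between 1549 and 1958 CPM in eIF4E input. The 6 epithelial markers, led by KRT8 with 50732 counts, summed to 1374 to 2258 CPM in vector input and to 2461 to 4002 CPM in eIF4E input, so these groups did not overlap. In Cap IP the mesenchymal markers summed to 1071 to 2385 CPM in vector cells and to 1017 to 1247 CPM in eIF4E cells, and the epithelial markers to 3049 to 4664 and to 4909 to 6584 CPM, again without overlap. All 4 tested mesenchymal markers were below zero for eIF4E against vector in Cap IP (median log2 change -0.84), where 48.8% of all genes were above zero. Of the 4 tested epithelial markers, 2 were above zero in that comparison (median 0.04), with KRT8 at 0.59 (edgeR adjusted p = 0.595) and KRT18 at -0.004. In input 3 of these 4 were above zero (median 0.55). None of the tested markers of either list passed between eIF4E and vector cells. The part of these differences in the results on the proteases was not tested. The sums are of the counted rows, and VIM-AS1, opposite to VIM, held 17370 counts in the mean library against 1289 for VIM. Mesenchymal and epithelial sums are therefore not to be compared with each other. Of the 6 blood markers, PTPRC had 2 counts and CD14 and HBB had 0. Their sum lay between 7.11 and 10.2 CPM in vector input and between 4.35 and 10.9 CPM in eIF4E input. In Cap IP it was 19.8 to 46.2 CPM in vector cells and 14.9 to 35.7 CPM in eIF4E cells. CD68, the 1 blood marker tested, rose from input to Cap IP, by 1.72 (log2) in vector and 1.64 in eIF4E cells (edgeR adjusted p = 0.00524 and 0.00797).

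The kit named in the labels keeps the strand, but the labels and notes do not say how strand was set in the counting. VIM-AS1, opposite to VIM, held 17370 counts in the mean library and VIM 1289. MT-ND6, the mitochondrial mRNA of the other strand, held 6805 and MT-CO1 1304. BEST1, opposite to FTH1, held 23100 and FTH1 548.1. Each member's counts may therefore hold RNA of the strand opposite to its mRNA, in part or for the most part. The levels below are those of the counted rows and may not be those of the mRNA. The ratio of VIM-AS1 to VIM was 5.92 to 8.71 in input and 18.2 to 30.8 in Cap IP. For BEST1 over FTH1 it was 16.5 to 28.4 in input and 51.1 to 101 in Cap IP. Both ratios were higher in Cap IP in 6 of 6 cultures, and the part of this shift in the members' Cap IP levels was not tested.

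Vector replicate 3 stood apart for these genes. It had the highest CPM of its fraction for 4 of the 7 tested members in input and for 6 of 7 in Cap IP. Results that rest on it are therefore given with and without its input and Cap IP libraries, an alternative chosen after seeing the data.

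Per kilobase of exon, TIMP1 had the highest level of the group in vector input, at 107.9 ± 32.9 CPM per kb (SD, n = 3). MMP2 came next at 21.7 ± 15.6, then MMP14 at 15.7 ± 5.07, TIMP2 at 14.5 ± 2.53, MMP9 at 10.4 ± 6.06, TIMP3 at 6.72 ± 2.26 and PLAU at 4.03 ± 2.95 CPM per kb. MMP1 was last at 0.26 ± 0.12 CPM per kb. From MMP2 down to PLAU, neighbours in this order differed by less than their spread, whereas TIMP1 and MMP1 lay outside the spread of their neighbours. In eIF4E Cap IP, TIMP1 was again first, at 56.3 ± 21.5 CPM per kb, and TIMP2 and MMP9 followed at 10.5 ± 2.14 and 9.43 ± 3.76. MMP2 and MMP14 stood below these there, at 5.50 ± 0.42 and 5.17 ± 0.37 CPM per kb.

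**Figure D1:**
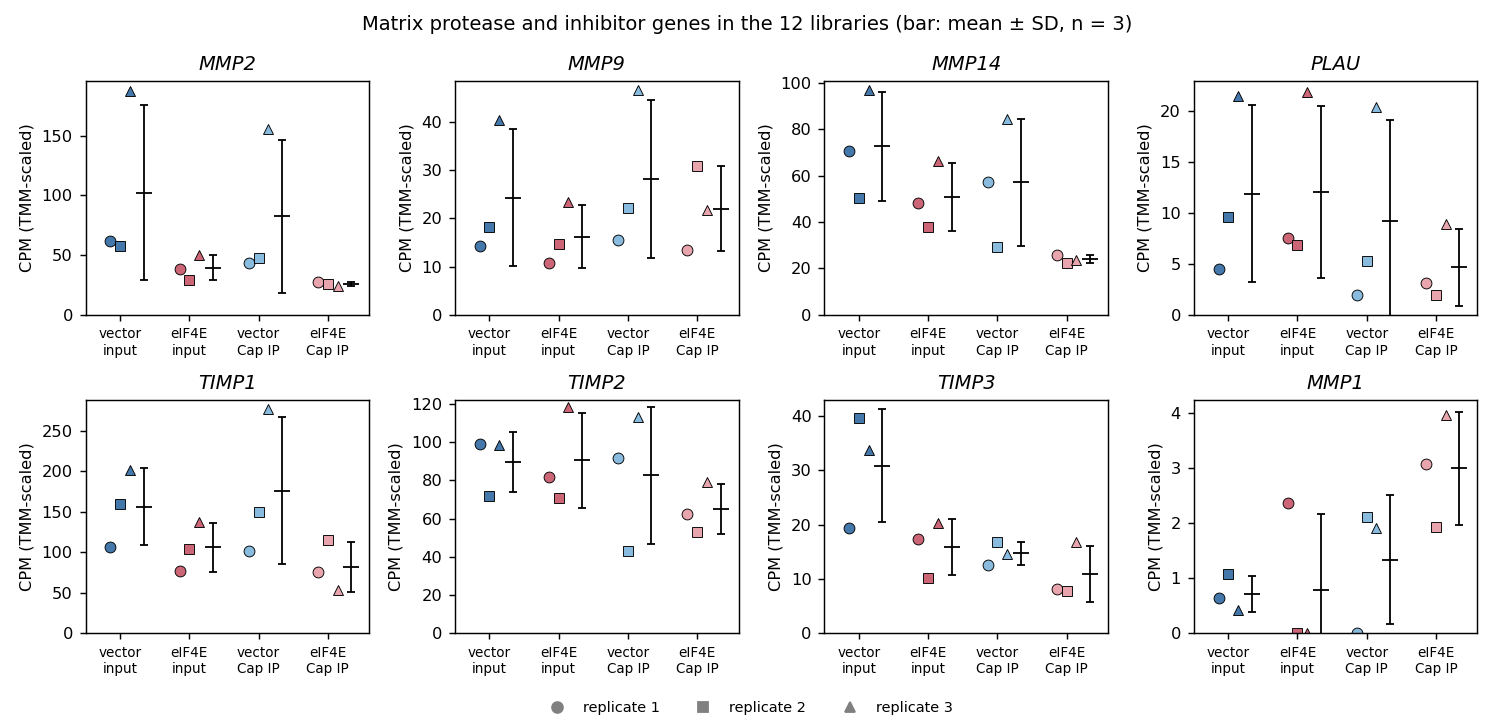
Level of each gene in CPM (TMM-scaled, linear axes from 0) in the 12 libraries. Circles, squares and triangles are replicates 1 to 3 of a group, and the bar beside them is the mean ± SD (n = 3), cut at 0 where it would pass below. MMP2 was highest in vector replicate 3 in both fractions, at 187 and 156 CPM, and MMP14 lay between 22.2 and 25.7 CPM in the 3 eIF4E Cap IP libraries.

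MMP2 (chromosome 16, 55389700 to 55506691, plus strand, GRCh38, GENCODE release 44), the gelatinase that MMP14 activates, was lower in eIF4E cells in both fractions, though no call passed over all genes. In input, MMP2 stood at 62.1, 57.7 and 187 CPM in vector cells and at 38.4, 29.3 and 50.4 CPM in eIF4E cells. In Cap IP the 3 vector libraries had 43.8, 47.3 and 156 CPM and the 3 eIF4E libraries 27.7, 26.1 and 23.8 CPM. Every eIF4E library lay below every vector library of its fraction, and vector replicate 3 was far above the others of its group. In such bulk samples fewer cells with the RNA and less RNA per cell cannot be told apart. The difference between eIF4E and vector cells was -1.39 ± 0.46 (log2 ± SE) in input, with an edgeR adjusted p of 0.173, and -1.69 ± 0.49 in Cap IP, with an edgeR adjusted p of 0.228. Without vector replicate 3 it was -0.60 in input and -0.78 in Cap IP (edgeR adjusted p = 0.530 and 0.602). With no filter on low counts, MMP2 passed in input (edgeR adjusted p = 0.0206) and in Cap IP (edgeR adjusted p = 0.000642). Between Cap IP and input, MMP2 changed by -0.30 ± 0.45 in vector cells (edgeR adjusted p = 0.625) and by -0.60 ± 0.49 in eIF4E cells (edgeR adjusted p = 0.330), where the groups did not overlap. Leaving out the Cap IP library of vector replicate 3 alone took the value in vector cells to -1.17 (edgeR adjusted p = 0.0366), and leaving out its input library alone took it to 0.48 (0.418).

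MMP14 (chromosome 14, 22836560 to 22849041, plus strand), the membrane-anchored activator of MMP2, was the 1 protease of the group called by edgeR with TMM scaling and filterByExpr, the settings used throughout unless another is named, with lower levels in Cap IP than in input of eIF4E cells. In eIF4E cells it had 48.2, 37.6 and 66.5 CPM in input and 25.7, 22.2 and 23.8 CPM in Cap IP. Each Cap IP library thus lay below each input library, and those of Cap IP lay close together. The change was -1.08 ± 0.37 (log2 ± SE, edgeR adjusted p = 0.0224). It no longer passed without the Cap IP library of eIF4E replicate 2 (edgeR adjusted p = 0.0670), the input library of eIF4E replicate 3 (0.0927) or the Cap IP library of eIF4E replicate 3 (0.0505), nor on mitochondrial mRNAs as library sizes, where it was -0.91 (edgeR adjusted p = 0.447). In vector cells MMP14 had 70.5, 50.2 and 97.0 CPM in input and 57.4, 29.4 and 84.3 CPM in Cap IP, which overlapped, a change of -0.33 ± 0.34 (edgeR adjusted p = 0.464). The test of the difference between the 2 changes did not pass, at -0.75 ± 0.51 (edgeR adjusted p = 0.851). Between eIF4E and vector cells, MMP14 differed by -0.52 ± 0.34 in input (edgeR adjusted p = 0.519) and by -1.27 ± 0.38 in Cap IP, without overlap (edgeR adjusted p = 0.246). Without vector replicate 3, the Cap IP value was -0.83 (edgeR adjusted p = 0.646).

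MMP9 (chromosome 20, 46008908 to 46016561, plus strand), the other gelatinase, was the 1 tested member whose fitted level was above input in Cap IP of both kinds of cells, without a call. It had 14.2, 18.2 and 40.5 CPM in vector input and 10.7, 14.7 and 23.4 CPM in eIF4E input. In Cap IP it stood at 15.6, 22.1 and 46.6 CPM in vector cells and at 13.3, 30.9 and 21.8 CPM in eIF4E cells. All 4 groups overlapped, and both vector groups were widened by replicate 3. The Cap IP change of MMP9 was 0.22 ± 0.45 in vector cells (edgeR adjusted p = 0.728) and 0.45 ± 0.47 in eIF4E cells (edgeR adjusted p = 0.453), and it fell below zero with total counts as library sizes (-0.49 and -0.36). Between eIF4E and vector cells it differed by -0.61 ± 0.45 in input and by -0.38 ± 0.47 in Cap IP, and the latter turned to 0.27 without vector replicate 3. SLC12A5-AS1, which lies opposite to 18.4% of the MMP9 exon bases, had no row under that name in the count table and was not analysed here.

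MMP1 (chromosome 11, 102789401 to 102798160, minus strand), the interstitial collagenase, was near the limit of detection and was not tested. Its counts were 1, 2 and 1 in vector input, 6, 0 and 0 in eIF4E input, 0, 2 and 3 in vector Cap IP and 3, 2 and 4 in eIF4E Cap IP. A count of 0 allows up to 2.92 CPM in vector Cap IP replicate 1, and 1.47 and 1.56 CPM in eIF4E input replicates 2 and 3. WTAPP1, a pseudogene on the opposite strand over 8.14% of the MMP1 exon bases, had 1 to 7 counts per library.

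TIMP1 (chromosome X, 47582408 to 47586789, plus strand), a secreted inhibitor of most MMPs, was the most abundant of the group and tended lower in eIF4E Cap IP. It had 106.7, 159.8 and 201.5 CPM in vector input and 77.1, 103.6 and 137 CPM in eIF4E input. In Cap IP it had 102.1, 149 and 277 CPM in vector cells and 75.9, 115 and 53.5 CPM in eIF4E cells. The groups overlapped in both fractions, and eIF4E replicate 3 was the lowest Cap IP library although its input was the highest of the eIF4E input libraries. The difference between eIF4E and vector cells was -0.56 ± 0.36 in input (edgeR adjusted p = 0.510) and -1.12 ± 0.37 in Cap IP (edgeR adjusted p = 0.329), the latter -0.59 without vector replicate 3. Between Cap IP and input, TIMP1 changed by 0.18 ± 0.36 in vector cells (edgeR adjusted p = 0.726) and by -0.38 ± 0.37 in eIF4E cells (edgeR adjusted p = 0.424). TIMP1 lies within the body of SYN1, a synaptic vesicle gene of the opposite strand, but shares 0 exon bases with it. SYN1 had 12 to 49 counts per library against 54 to 478 for TIMP1.

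TIMP2 (chromosome 17, 78852977 to 78925387, minus strand), which joins MMP14 in activating the MMP2 precursor, was the member that differed least between the cells. It had 98.9, 71.6 and 98.7 CPM in vector input and 81.8, 70.9 and 118 CPM in eIF4E input. The input groups overlapped fully, with a difference of 0.01 ± 0.32 (log2 ± SE, edgeR adjusted p = 0.993). In Cap IP, TIMP2 had 91.4, 43.1 and 113 CPM in vector cells and 62.6, 53.1 and 79.3 CPM in eIF4E cells, a difference of -0.35 ± 0.33 (edgeR adjusted p = 0.807). Its Cap IP change was -0.11 ± 0.32 in vector cells (edgeR adjusted p = 0.816) and -0.47 ± 0.33 in eIF4E cells (edgeR adjusted p = 0.247). A long noncoding RNA gene without a symbol lies opposite to 5.91% of the TIMP2 exon bases. It had no row under its identifier in the count table.

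TIMP3 (chromosome 22, 32801705 to 32863041, plus strand), the matrix-bound inhibitor, fell in Cap IP against input in vector cells. It had 19.4, 39.6 and 33.7 CPM in vector input and 12.6, 16.8 and 14.7 CPM in vector Cap IP, with no overlap. The change was -1.08 ± 0.38 (log2 ± SE, edgeR adjusted p = 0.0315). It rested on few counts, 13 to 23 per Cap IP library, and no longer passed on leaving out the input library of replicate 2 (edgeR adjusted p = 0.124) or 3 (0.0787), or the Cap IP library of replicate 1 (0.0985), 2 (0.0557) or 3 (0.0679), or both libraries of replicate 3 (0.119). On mitochondrial mRNAs as library sizes the value was 0.02. In eIF4E cells TIMP3 had 17.4, 10.3 and 20.3 CPM in input and 8.21, 7.73 and 16.9 CPM in Cap IP, which overlapped, a change of -0.54 ± 0.41 (edgeR adjusted p = 0.295). The changes of the 2 kinds of cells differed by 0.53 ± 0.57 (edgeR adjusted p = 0.903). Between eIF4E and vector input, TIMP3 differed by -0.96 ± 0.36 (edgeR adjusted p = 0.247), with overlap at a single pair of libraries, 20.3 and 19.4 CPM. TIMP3 lies within the body of SYN3, of the opposite strand, shares 0 exon bases with it, and SYN3 had at most 5 counts in a library.

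PLAU (chromosome 10, 73909177 to 73917496, plus strand), the urokinase gene, had few counts under its own name and far more under that of its opposite neighbour. Its values were 4.53, 9.62 and 21.5 CPM in vector input and 7.51, 6.84 and 21.8 CPM in eIF4E input. In Cap IP they were 1.95, 5.26 and 20.4 CPM in vector cells and 3.08, 1.93 and 8.92 CPM in eIF4E cells. Replicate 3 was the highest of every group, and all groups overlapped. The difference of PLAU between eIF4E and vector cells did not pass in input (-0.04 ± 0.62, edgeR adjusted p = 0.986) or in Cap IP (-1.09 ± 0.81, edgeR adjusted p = 0.747), where the value was 0.41 without vector replicate 3. Its Cap IP change was -0.29 ± 0.66 in vector cells (edgeR adjusted p = 0.757) and -1.35 ± 0.77 in eIF4E cells (edgeR adjusted p = 0.160), and PLAU was lower in Cap IP than in input in 6 of 6 cultures.

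C10orf55 (chromosome 10, 73909969 to 73922777, minus strand), annotated as a long noncoding RNA, covers 915 of the 2949 exon bases of PLAU (31%) on the other strand. It had 87, 172 and 572 counts in vector input, against 7, 18 and 51 for PLAU in the same libraries. In eIF4E input it had 198, 150 and 308 counts, against 19, 14 and 42 for PLAU. Replicate 3 was again the highest library of each input group. In vector Cap IP C10orf55 had 127, 223 and 726 counts. In eIF4E Cap IP it had 200, 252 and 246. Which strand of RNA these counts stand for was not tested. C10orf55 changed by 1.08 ± 0.47 (log2 ± SE, edgeR adjusted p = 0.0719) from input to Cap IP in vector cells and by 1.15 ± 0.47 (edgeR adjusted p = 0.0504) in eIF4E cells, the opposite sign to PLAU in both. With the title stem as a replicate block, the value in vector cells was 1.14 and passed (edgeR adjusted p = 0.000174). Without vector replicate 3 it was 1.23 (edgeR adjusted p = 0.0251). Leaving out the input library of that replicate alone gave 1.88 (edgeR adjusted p = 0.00419), leaving out its Cap IP library alone gave 0.47 (0.432), and leaving out the Cap IP library of replicate 1 gave 1.46 (0.0182). In eIF4E cells the change passed without the input library of replicate 3, at 1.61 (edgeR adjusted p = 0.0219), and with DESeq2 (adjusted p = 0.0499). It did not pass on leaving out any other single eIF4E library (edgeR adjusted p = 0.0637 to 0.166). With total counts as library sizes it was 0.36 in both kinds of cells and did not pass (edgeR adjusted p = 0.570 in vector and 0.555 in eIF4E cells).

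The ratio of C10orf55 to PLAU counts within a library does not depend on the library size. It lay between 7.33 and 12.4 in the 6 input libraries and between 22.7 and 126 in the 6 Cap IP libraries. From input to Cap IP it rose 5.11-fold, 4.67-fold and 2.02-fold in vector cultures 1 to 3 and 6.40-fold, 11.8-fold and 3.73-fold in eIF4E cultures 1 to 3. The ratio was higher in Cap IP in 6 of 6 cultures, by 2.29 ± 0.84 (mean log2 ± SD, n = 6, 4.88-fold), with a two-sided exact sign-flip permutation p of 0.0312, the smallest that 6 cultures allow. With the mean of the 2 cultures of each title tag as 1 unit, the ratio was higher in 3 of 3 units, with an exact permutation p of 0.25, the smallest that 3 allow. Without vector replicate 3 the mean was 5.82-fold over 5 cultures, with an exact permutation p of 0.0625, the smallest that 5 allow. The ratio was chosen after its values were seen, when it was already higher in Cap IP in every culture. Each of these p-values could therefore only be the smallest possible, and none of them tests the shift. They also take libraries that share a stem as pairs, which was not settled. The PLAU counts in Cap IP, 2 to 32, limit its precision. The same direction was seen for VIM-AS1 over VIM, between 2.09-fold and 5.21-fold, for BEST1 over FTH1, between 1.96-fold and 6.12-fold, and for MT-ND6 over MT-CO1, between 7.49-fold and 18.6-fold, in 6 of 6 cultures each.

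**Figure D2:**
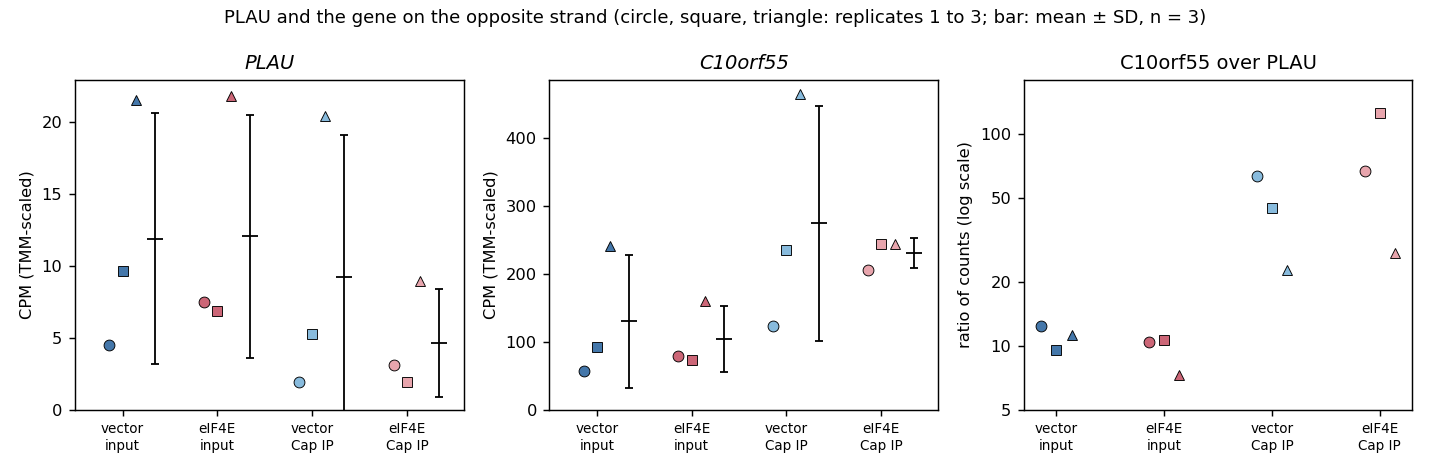
PLAU and C10orf55 in CPM (linear axes from 0, mean ± SD, n = 3, cut at 0) and the ratio of their counts (log axis) in the 12 libraries. Circles, squares and triangles are replicates 1 to 3. All 6 Cap IP ratios, 22.7 to 126, lie above all 6 input ratios, 7.33 to 12.4.

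Between eIF4E and vector input, 0 of the 7 tested members passed edgeR's quasi-likelihood test at an adjusted p under 0.05, MMP1 not being tested, where 0.53% of all 12460 genes passed, 0.104% higher and 0.425% lower. MMP2 and TIMP3 had an unadjusted p under 0.05, and DESeq2 called 0 members. The median change of the 7 was -0.56, against -0.05 for all genes, and without vector replicate 3 it was -0.25. MMP2 was the 1 member of 7 whose groups did not overlap, where 18.7% of all genes did not overlap.

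Between eIF4E and vector Cap IP, 0 of 7 passed against 0.225% of all genes (0.0803% higher and 0.144% lower). All 7 fitted values were below zero, where 48.8% of all genes were above zero. The 7 values share the same libraries. MMP2, MMP14 and TIMP1 had an unadjusted p under 0.05, and DESeq2 called 0 members. The median was -1.09, against -0.01 for all genes, and without vector replicate 3 it was -0.39. MMP2 and MMP14 did not overlap between groups, 2 of 7, where 13.6% of all genes did not overlap. With the title tag that vector and eIF4E libraries share as a replicate block, 114 genes passed instead of 28, and again 0 members. Without vector replicate 3, MMP9 and PLAU had values above zero. This comparison and that in input share no libraries, while both share libraries with the Cap IP against input comparisons, so the members' values in them are set side by side and not correlated.

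Between Cap IP and input of vector cells, 1 of 7 members (TIMP3) was called, where 39.5% of all genes were called, 18.5% higher and 21% lower. In eIF4E cells 1 of 7 (MMP14) was called, where 45.1% of all genes were called, 21.9% higher and 23.3% lower. Without overlap were TIMP3 in vector cells (49.9% of all genes) and MMP2 and MMP14 in eIF4E cells (54.8% of all genes). The median change of the 7 was -0.30 in vector cells and -0.54 in eIF4E cells, against -0.04 and -0.13 for all genes. The difference between these changes gave calls for 0% of all genes and 0 of 7 members, with 0 members and 728 genes at an unadjusted p under 0.05, and DESeq2 called 0.

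**Figure D3:**
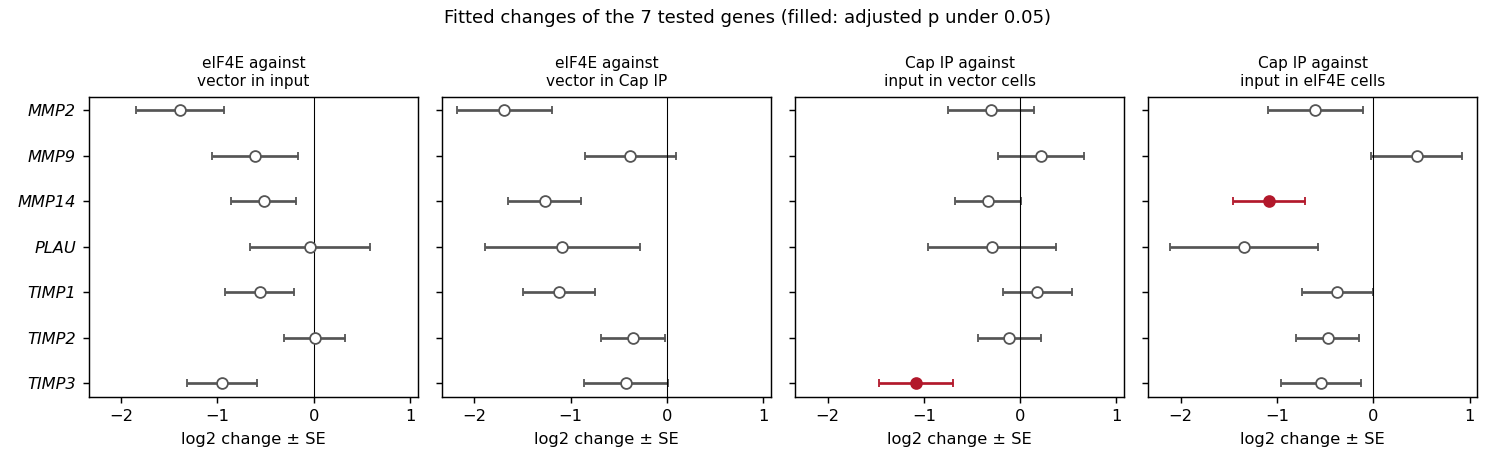
Fitted log2 changes ± SE of the 7 tested genes in 4 comparisons on a common axis, filled where the edgeR adjusted p was under 0.05. All 7 values lie below zero for eIF4E against vector in Cap IP, with none filled. Those of MMP9 and PLAU were above zero there without vector replicate 3. The filled points are TIMP3 in vector cells (-1.08) and MMP14 in eIF4E cells (-1.08).

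Ratios of members within a library, chosen after their values were seen, are given as a description with no test. The ratio of MMP14 to TIMP2 counts was 0.712, 0.701 and 0.983 in vector input and 0.589, 0.531 and 0.561 in eIF4E input. In vector Cap IP it was 0.628, 0.683 and 0.746, and in eIF4E Cap IP 0.410, 0.418 and 0.300. In both fractions the 3 eIF4E libraries lay below the 3 vector libraries, and vector replicate 3 was the highest without deciding the order. MMP2 over TIMP2 was 0.627, 0.806 and 1.90 in vector input and 0.469, 0.414 and 0.425 in eIF4E input. In vector Cap IP it was 0.479, 1.10 and 1.38, and in eIF4E Cap IP 0.443, 0.491 and 0.300. That ratio was separate in input and overlapped in Cap IP. MMP9 over TIMP1 ran from 0.114 to 0.201 in vector input, from 0.138 to 0.170 in eIF4E input, from 0.148 to 0.168 in vector Cap IP and from 0.176 to 0.407 in eIF4E Cap IP.

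**Figure D4:**
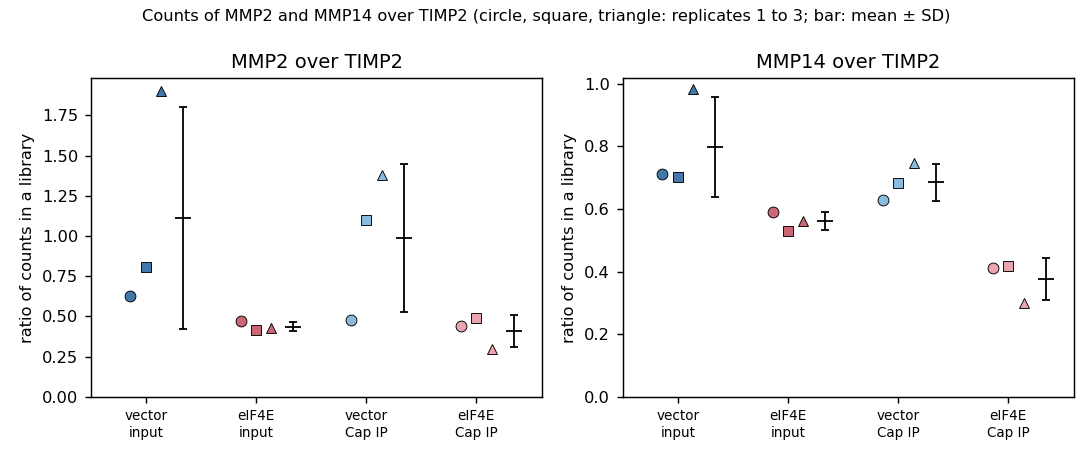
Ratio of MMP2 to TIMP2 counts and of MMP14 to TIMP2 counts within each of the 12 libraries (linear axes from 0). Circles, squares and triangles are replicates 1 to 3, and the bar is the mean ± SD (n = 3). MMP14 over TIMP2 was 0.531 to 0.589 in eIF4E input, below the lowest vector input library at 0.701.

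The other genes of matrix breakdown were counted from lists, and are to be read against the 18.5% of all genes that rose and 21% that fell in vector Cap IP and the 21.9% and 23.3% in eIF4E Cap IP. Of 4 tested among 19 other MMPs, 3 fell in vector Cap IP and 2 in eIF4E Cap IP. All 4 are membrane-type enzymes. MMP16 fell in vector cells, at -2.46 (edgeR adjusted p = 0.0382), a call lost without the input library of replicate 2 or 3 or the Cap IP library of replicate 1 or 3 (0.0661 to 0.132). MMP25 was at 0.47 in vector and 0.70 in eIF4E cells without passing (edgeR adjusted p = 0.275 and 0.0925). MMP15 and MMP24 fell, at -1.61 and -0.94 (log2) in vector cells (edgeR adjusted p = 0.0084 and 0.0118), and MMP24 was at 0.32 there on mitochondrial mRNAs as library sizes. The call of MMP15 in vector cells was lost without the input library of vector replicate 3 (edgeR adjusted p = 0.0559) and without both its libraries (0.0786), and that of MMP24 without the input library of vector replicate 2 (0.0548). In eIF4E cells MMP15 (-1.25, edgeR adjusted p = 0.0324) no longer passed without the Cap IP library of replicate 1, 2 or 3 (0.0827, 0.0724 and 0.0627) or the input library of replicate 2 or 3 (0.0527 and 0.139). Of 9 tested among 14 other inhibitors and partners of MMP14, 2 rose and 2 fell in both kinds of cells. LRP1, the endocytic receptor that clears proteases and their inhibitors, fell, at -3.81 (log2) in vector cells and -4.24 in eIF4E cells (edgeR adjusted p = 3.03e-07 and 1.42e-07). FURIN, the convertase that activates MMP14, fell, at -1.38 and -1.71 (edgeR adjusted p = 0.0110 and 0.00231), and PCSK7, another convertase, rose by 1.71 and 1.78 (edgeR adjusted p = 0.00083 and 0.000491). The FURIN call in vector cells was lost without the Cap IP library of replicate 1 or 2 or the input library of replicate 3 (edgeR adjusted p = 0.0552, 0.0588 and 0.0645). On mitochondrial mRNAs as library sizes FURIN did not pass, at -0.54 in vector and -1.48 in eIF4E cells (edgeR adjusted p = 0.613 and 0.177), nor did PCSK7 in eIF4E cells (2.04, 0.0756), MMP15 (-0.55 and -1.05) or MMP16 (-1.82).

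Among genes of plasminogen activation, 9 of 17 were tested, of which 2 rose and 2 fell in vector Cap IP (39.5% of all genes called) and 0 rose and 2 fell in eIF4E Cap IP (45.1% of all genes called). PLAUR, the urokinase receptor, rose by 0.81 ± 0.32 in vector cells (edgeR adjusted p = 0.0485), which was lost on leaving out either library of vector replicate 1 or 3 or the input library of replicate 2 (0.0676 to 0.190), and changed by 0.12 ± 0.30 in eIF4E cells (edgeR adjusted p = 0.765). In input PLAUR was higher in eIF4E cells by 1.00 ± 0.31 without passing (edgeR adjusted p = 0.149), whereas PLAU itself was at -0.04. The vector Cap IP call of PLAUR was also lost with DESeq2 (adjusted p = 0.0674), DESeq2 size factors (edgeR adjusted p = 0.0587), no filter (0.184), only the groups compared (0.0727), mitochondrial mRNAs (0.0664) and total counts, where the value was 0.09 (0.847).

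Of 22 tested among 26 matrix substrates, the proteins that these enzymes cut, 17 fell in Cap IP in vector cells, where 21% of all genes fell, and 17 in eIF4E cells, where 23.3% fell, and 0 rose. Between eIF4E and vector Cap IP, 20 of the 22 were below zero (median -0.55), where 48.8% of all genes were above zero, with 0 calls. The median changes of the 22 from input to Cap IP were -1.77 in vector and -2.06 in eIF4E cells. COL1A1, the main chain of type I collagen, fell, at -1.92 and -2.39 (edgeR adjusted p = 0.000105 and 1.11e-05). On mitochondrial mRNAs as library sizes COL1A1 was at -0.95 in vector cells and did not pass (edgeR adjusted p = 0.361). LAMA5, a laminin chain, fell, at -2.96 and -3.30 (edgeR adjusted p = 6.61e-06 and 1.86e-06). Of the ADAM and ADAMTS proteases 11 of 29 were tested, of which 0 rose and 4 fell in vector cells and 1 rose and 4 fell in eIF4E cells, with ADAMTS12 at -2.53, which was -1.34 and did not pass on mitochondrial mRNAs (edgeR adjusted p = 0.191), and -3.07. Of the cathepsins and cystatins 11 of 18 were tested, of which 2 rose and 3 fell in vector cells and 0 rose and 4 fell in eIF4E cells. Of the AP-1 and ETS factors that bind protease promoters 18 of 20 were tested, with 0 higher and 2 lower in vector cells and 0 higher and 4 lower in eIF4E cells. No tested gene of these 7 lists passed between eIF4E and vector cells in input or Cap IP, or for the difference. Genes opposite to those of the lists were not looked up, so the falls given for the lists are those of the counted rows. In Cap IP the opposite row gained 2.09-fold to 5.21-fold over VIM and 1.96-fold to 6.12-fold over FTH1. The part of such a shift in the falls of the lists was not tested.

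For each tested member the 3 genes with the most similar log2 CPM over the 12 libraries were found among genes of an average log2 CPM of at least 4, as a description. These correlations include the differences between the 4 groups and share the libraries. MMP2 was most like CTA-373H7.7 (Pearson r = 0.936), AGAP2-AS1 and CLIP3. MMP14 was most like HERPUD1 (r = 0.931). PLAU was most like BMP1 (r = 0.939), NES and AEBP1. TIMP1 was most like RCN3 (r = 0.905), and MMP2 was also among its 3 (r = 0.841), the one case in which a member had another among its 3. For TIMP2 the first gene was ITM2C (r = 0.895), for TIMP3 RP11-488C13.6 (r = 0.878) and for MMP9 CDSN (r = 0.903).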

How the data were processed

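The deposited table holds raw read counts, 1 row per gene name. Per the submitters' processing notes the authors used STAR 2.5.1b, featureCounts 1.4.5-p1, DESeq2 and GRCh38.p5. Per the labels, KAPA RNA HyperPrep libraries with RiboErase were read over 75 cycles, single-end. The gene annotation and strand setting of the counting are named neither in the labels nor in those notes. The members, gene lists and alternatives were chosen with earlier results of these data known.

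Counts were analysed with R 4.3.3 and edgeR 4.0.16. Genes kept by filterByExpr (12460, 7 of 8 members) were scaled with TMM (factors 1.173 to 1.491 in input, 0.6674 to 0.8912 in Cap IP) and tested by edgeR's quasi-likelihood fit of 4 group means over 12 libraries (common dispersion 0.0883). Adjusted p-values are Benjamini-Hochberg values over all 12460 genes, called under 0.05, in 5 comparisons. Log2 CPM used a prior count of 2. Named were all members, EIF4E, genes opposite to a member, up to 4 genes per list with the smallest p, and the 3 most similar genes. A gene that this rule names is not reported here. Positions and exon lengths came from GENCODE 44 (GRCh38), matched by symbol. Figures used Python 3.11.15 and matplotlib 3.10.9. The procedure was tested on simulated data.

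Whether title stems (input with Cap IP) or tags (vector with eIF4E) pair libraries was checked by correlating residuals from the group means. Stems gave 0.429, 0.271 and 0.440 in vector and 0.354, 0.0797 and 0.111 in eIF4E cells. Tags gave 0.182, 0.0126 and -0.0363 for the input libraries and 0.203, 0.156 and 0.305 for the Cap IP libraries. No cutoff was set for these values, so whether libraries are paired was left undecided. The main fits took them as unpaired, with the blocks as alternatives. With the stem block, genes called for Cap IP against input rose from 4921 to 6084 in vector and from 5625 to 6690 in eIF4E cells. Alternatives were DESeq2 1.42.0 as test, its size factors, library sizes from total counts or from 13 mitochondrial mRNAs, no filter, a minimum of 50 counts in 3 libraries, fits of the compared groups alone, replicate blocks and leaving out libraries.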

Additional observations from a re-analysis of the deposited data

How the results depend on the processing

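Few members were called, so 1 gene moves each count. Members called for eIF4E against vector rose from 0 to 1 with no filter on low counts, in input and in Cap IP (MMP2 each time). For Cap IP against input in vector cells, 1 was called, 2 with total counts as library sizes, and 0 with mitochondrial mRNAs as library sizes, with a filter of 50 counts in 3 libraries (which drops TIMP3) and without vector replicate 3. In eIF4E cells 1 was called, 6 with total counts, 0 with mitochondrial mRNAs, and 2 with no filter or with the title stem as a replicate block (MMP14 and PLAU, the latter at -1.38 with an edgeR adjusted p of 0.0155 under the block). Leaving out each library in turn gave 0 to 1 in both. For MMP2 in vector cells, a call appeared without the Cap IP library of vector replicate 3.

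Total counts shifted the median of all genes for Cap IP against input to -0.781 in vector and -0.985 in eIF4E cells, and mitochondrial mRNAs to 0.967 and 0.0344. The share of calls that were higher was 46.9% in vector cells and 48.5% in eIF4E cells, 12.8% and 15.8% with total counts, and 84% and 54.5% with mitochondrial mRNAs. Calls for eIF4E against vector in input numbered 66 over all genes, 282 with the tag as a replicate block, 318 with no filter, 151 with DESeq2, 32 with the filter of 50 counts, 18 with only the groups compared, 11 with total counts, 7 with mitochondrial mRNAs and 7 to 109 on leaving out each library (7 without eIF4E replicate 2). In Cap IP they numbered 28, 114 with the tag block, 204 with no filter, 75 with DESeq2, 18 with the filter of 50 counts or mitochondrial mRNAs, 6 with only the groups compared and 0 to 30 on leaving out each library (0 without eIF4E replicate 2). For the difference 51 genes passed with the stem as a replicate block and 0 without it, none of them a member. The block by stem or tag changed no other member's call, and C10orf55 passed under the stem block in both kinds of cells.

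Values that changed sign had not been called, apart from TIMP3, MMP24 and CTSB. For Cap IP against input in vector cells with mitochondrial mRNAs, MMP2 was at 0.44, MMP14 at 0.42, TIMP2 at 0.69, TIMP3 at 0.021, PLAU at 0.22, MMP24 at 0.32 and CTSB at 0.027. With total counts MMP9 was at -0.49 and TIMP1 at -0.53, and MMP9 was at -0.36 in eIF4E cells, where TIMP1 was at 0.0098 with mitochondrial mRNAs. For the difference with mitochondrial mRNAs, MMP9 was at -0.26 and TIMP3 at -0.44. In input, TIMP2 was at -0.056 with the filter of 50 counts and at -0.0065 with the replicate block, and PLAU at 0.14 with mitochondrial mRNAs, 0.0784 with no filter and 0.045 with the replicate block. Without vector replicate 3, PLAU was at 0.72 in input and 0.41 in Cap IP, MMP9 at 0.27 in Cap IP and TIMP1 at -0.12 for Cap IP against input.

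Leaving out each library in turn, values for Cap IP against input in vector cells ran from -1.17 to 0.48 for MMP2, -0.39 to 0.82 for MMP9, -1.75 to 0.46 for PLAU, -0.32 to 0.48 for TIMP1 and -0.42 to 0.20 for TIMP2. For the difference they ran from -1.09 to 0.55 for MMP2, -0.37 to 0.84 for MMP9 and -1.97 to 0.41 for PLAU. In Cap IP they ran from -0.69 to 0.27 for MMP9 and -1.97 to 0.41 for PLAU, and in input from -0.75 to 0.73 for PLAU and -0.22 to 0.16 for TIMP2. The cause of these changes was not tested. Of 45 calls among the named genes of the lists and EIF4E, 39 held with total counts and 15 with mitochondrial mRNAs.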
